A study of Mus musculus with 6 samples.

Results

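The genes described here are 10 members of the BCL2 family, out of 20097 genes with a value in these libraries. They were taken by name: the pro-survival genes Bcl2, Bcl2l1, Bcl2l2, Mcl1 and Bcl2a1b, the BH3-only genes Bcl2l11, Bid, Bad and Bik, and the pore-forming gene Bak1. All 10 had a value in every library. RNA came from mouse bone marrow cells positive for c-Kit, the stem cell factor receptor carried by blood stem and progenitor cells, and was sequenced as poly-A RNA in 3 libraries of genotype WT and 3 of genotype Runx1 KO. RUNX1 is a DNA-binding transcription factor of blood development. Strain, age, sex and the means by which Runx1 was disrupted (promoter, Cre driver or germline allele) are not given in the sources used here, nor is it said whether each library came from 1 animal or from a pool. P-values therefore measure the spread between these libraries, which may be partly technical.

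Proteins of this family meet at the outer membrane of the mitochondrion. BAK and BAX can open pores in it and let cytochrome c escape, which starts the caspases; pro-survival members hold BAK and BAX in check; BH3-only proteins, named for the short helix they share with the rest of the family, bind the pro-survival members or the pore formers and so favour death. In blood, MCL1 is needed by stem cells and most of their progeny, BCL-XL (from Bcl2l1) by platelets and late red cell precursors, BCL2 by lymphocytes and A1 (from the Bcl2a1 copies) by granulocytes and mast cells, while BIM (from Bcl2l11) removes cells that have lost their growth factor.

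Values are normalised read counts, the deposited unit: reads of a gene divided by a size factor for the library. Taking the smallest step between values of a library as 1 read, the listed genes summed to between 23297526 and 26793380 inferred reads per library, and reads of single genes given below are inferred in the same way. The targeted gene did not fall: Runx1 stood at 3031, 2799 and 3497 normalised reads under the label WT, and at 6648, 6720.3 and 5829.9 under the label Runx1 KO. A value per gene cannot show a deleted exon, so the groups are called by their labels, and every direction below runs from the label WT to the label Runx1 KO. Kit, the gene of the receptor used for selection, was abundant in all 6 libraries, at 7979 to 8471 normalised reads under the label WT and 11507 to 13684 under the label Runx1 KO. Markers of other stages were detected, and their levels moved with the label. Summed over a list of markers, B-lymphoid reads ran from 7937 to 35032 under WT and from 1264 to 3599 under Runx1 KO (8 of 12 genes past the threshold, all lower, led by Ms4a1 and Pax5), and neutrophil granule reads from 326821 to 434482 and from 163642 to 228892 (10 of 15 lower, led by Ly6g and Ngp). Stem and multipotent markers ran from 20324 to 25504 and from 31826 to 36757 (10 of 12 higher, led by Slamf1 and Mycn), and megakaryocyte markers from 3906 to 4907 and from 5834 to 8175 (5 of the 8 tested higher, led by Selp and Gp1ba). Pf4 was the 1 tested megakaryocyte marker with a negative log2 change (-0.89), which did not pass. It had 428 to 477 normalised reads under WT and 153 to 391 under Runx1 KO. The mast cell and basophil sum ran from 12669.6 to 17224 and from 9754 to 12144 (6 of the 9 tested lower, led by Prss34 and Fcer1a). The other 3 tested, Hdc, Cpa3 and Cd200r3, had positive log2 changes (0.31, 0.40 and 0.57) that did not pass. Hdc was the most abundant of the list, with 5740 to 7734 normalised reads under WT and 7467 to 8304 under Runx1 KO. The T and NK sum ran from 7297 to 8060.3 and from 4976 to 5738 (1 of 12 lower, Nkg7, and 1 higher, Lat). Nkg7 made up most of the T and NK sum, with 5450 to 6523 normalised reads under WT and 3750 to 4463 under Runx1 KO. Of the 12 genes of that list, 9 overlapped between the labels. The erythroid sum (6 of 15 lower, led by Alas2 and Hbb-bt) and the monocyte and macrophage sum (4 of 12 lower, 1 higher, led by Cx3cr1 and Ly6c2) overlapped between the labels. In the erythroid list 5 genes had positive changes and 10 negative ones, and 0 passed as higher. Among the 5 was Klf1, with 1107 to 1512 normalised reads under WT and 1516 to 3160 under Runx1 KO. In bulk RNA, fewer cells of a type and less RNA per cell cannot be told apart. Each change below was tested with limma on log2(normalised read count + 1), and a gene passed when its Benjamini-Hochberg adjusted p over all 15410 tested genes was under 0.05.

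Sequences are shown for the regions just before the start of Bcl2 and of Bmf. Bcl2 is the tested member with the largest change. Bmf is the other family gene with the largest change when all 6 libraries are kept. The stretch where the Bcl2a1 copies differ, which limits what can be said of Bcl2a1b, is shown further below. Since the series concerns RUNX1 and GATA2, the 250 bases before each RefSeq start site (GRCm38.p6) were searched on both strands for the RUNX core TGTGGT, its variant TGCGGT, and the GATA cores AGATAA and TGATAA. Of the 10 members, 9 had at least 1 start site in the table, with 13 windows in all. The Bcl2 window lies at chr1:106714291-106714540 on the minus strand, holds 36 CpG pairs against a median of 6 over all 32851 windows, and has 74.8% G and C against a median of 52.4%. None of the 4 motifs is in it. Of the 3 Bmf start sites, the one with its window at chr2:118547600-118547849 on the minus strand has TGTGGT 3 times, shown in capitals, beginning 167, 72 and 67 bases before the start; the matches at 72 and 67 are on the other strand and share 1 base.
Bcl2: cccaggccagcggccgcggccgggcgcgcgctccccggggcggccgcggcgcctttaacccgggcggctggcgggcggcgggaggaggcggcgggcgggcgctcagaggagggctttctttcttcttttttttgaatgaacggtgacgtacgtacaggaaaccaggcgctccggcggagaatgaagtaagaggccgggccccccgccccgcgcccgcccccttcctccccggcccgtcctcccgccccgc
Bmf: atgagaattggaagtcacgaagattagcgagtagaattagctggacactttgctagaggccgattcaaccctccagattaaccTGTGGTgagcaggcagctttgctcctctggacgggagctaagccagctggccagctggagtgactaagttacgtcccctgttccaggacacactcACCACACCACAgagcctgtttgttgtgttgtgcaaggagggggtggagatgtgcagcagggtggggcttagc
Among the 13 member windows, TGTGGT was found in 1 (Bak1, beginning 221 bases before the start), TGCGGT in 2 (both of Bcl2l11), AGATAA in 1 (Bcl2l1, 41 bases before the start) and TGATAA in 0. The Bak1 window and this Bcl2l1 window lie wholly within exons annotated in GENCODE M21. Among the 17 windows of other BCL2 family genes, Bmf included, TGTGGT was found in 2, TGCGGT in 1, AGATAA in 2 and TGATAA in 0. Over all windows of this length the motifs are found in 14%, 5.1%, 9.99% and 7.94%. These matches describe letters in the windows and no more.

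Of the 9 members that could be tested, 2 passed the threshold, Bcl2 and Bak1, and both were lower in the libraries labelled Runx1 KO. Over all tested genes 21.9% passed, 11.3% lower and 10.6% higher, so 2 of 9 is close to the share of any gene. Scaled to equal library totals, 2386 genes were higher and 1372 lower, against 1631 and 1739 with the deposited scaling. The median change of the 9 was -0.19 on the log2 scale, against -0.0042 over all tested genes. In 5 of the 9 the libraries of the labels did not overlap, 4 with Runx1 KO lower and 1 with it higher, against 43.3% of all tested genes (21.9% lower, 21.4% higher). The tenth, Bcl2a1b, was too weakly expressed to be tested.

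**Figure D1:**
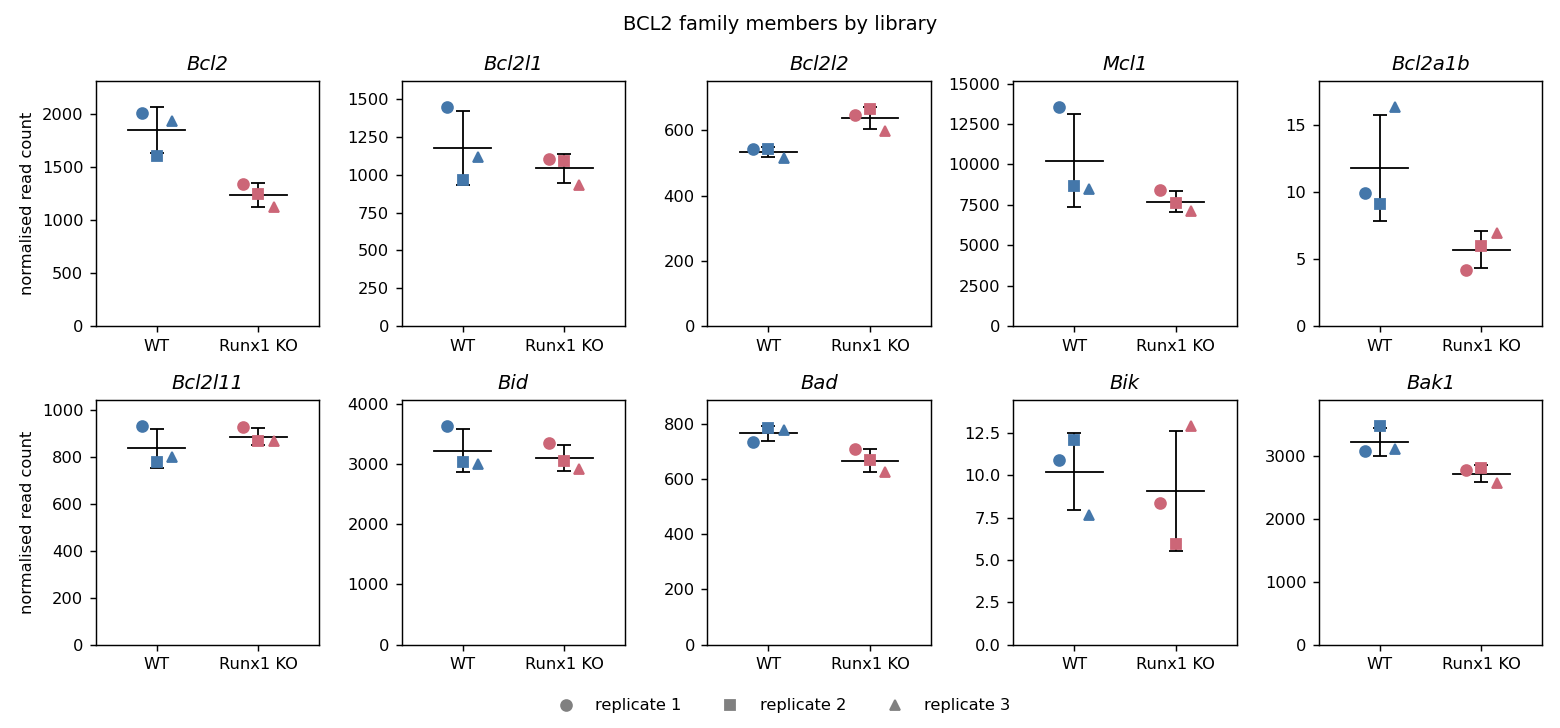
Normalised read count (y axis, from 0) of each of the 10 genes in the 3 libraries labelled WT (blue) and the 3 labelled Runx1 KO (red); the marker shape gives the replicate number, the line the mean and the bar the SD. Bcl2 and Bak1, the genes past the threshold, have every Runx1 KO library under every WT library, and WT replicate 1 stands alone at 13531 for Mcl1.

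Among the pro-survival members, Bcl2 (ENSMUSG00000057329; chromosome 1, 106538178 to 106714274, minus strand, protein coding in GENCODE M21) encodes the founding member of the family. It had 2009, 1605 and 1929 normalised reads in WT replicates 1 to 3 and 1340.0, 1248 and 1121 in Runx1 KO replicates 1 to 3. The highest Runx1 KO library lay below the lowest WT library. The mean fell from 1848 ± 214 to 1236 ± 110 (SD, n = 3), a ratio of 0.669 or -0.58 on the log2 scale (SE 0.11; limma adjusted p 0.0122). When each library was left out in turn the change ran from -0.67 to -0.51, and all 6 of these fits kept the limma adjusted p under the threshold, the highest being 0.0497. The B-lymphoid marker sum was also lower under Runx1 KO. It was 35032, 7937 and 12886 in WT replicates 1 to 3, and 3599, 1264 and 1299 in Runx1 KO replicates 1 to 3. Among the WT libraries, replicate 1 was highest and replicate 2 lowest in both Bcl2 and the marker sum. Among the Runx1 KO libraries, replicate 1 was highest in both, but replicate 3 was lowest in Bcl2 and replicate 2 in the marker sum. The neutrophil granule, mast cell and basophil, and T and NK sums were likewise lower in every Runx1 KO library. The stem and multipotent and the megakaryocyte sums were higher in every Runx1 KO library. The monocyte and macrophage sum overlapped between the labels. It was 117701, 90300 and 98237 in WT replicates 1 to 3, and 100639, 71974 and 67718 in Runx1 KO replicates 1 to 3. Within each label this sum stood in the same order as Bcl2. The part of lymphoid or other cells in the Bcl2 result was not tested.

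Mcl1 (ENSMUSG00000038612; chromosome 3, 95658788 to 95663176, plus strand), which encodes a short-lived pro-survival protein, had the highest level per kilobase of exon of the 10 members in every library. It had 13531, 8645 and 8460.3 normalised reads under the label WT and 8390.4, 7585 and 7119 under the label Runx1 KO. WT replicate 1 stood apart, while the other 5 libraries lay within a narrow range. The log2 change of -0.38 (SE 0.18) did not pass, with a limma adjusted p of 0.174. Without WT replicate 1 the change was -0.16 (limma adjusted p 0.241).

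Bcl2l1 (ENSMUSG00000007659; chromosome 2, 152780668 to 152831728, minus strand), the gene of BCL-XL, had 1448, 969 and 1118 normalised reads under WT and 1106, 1092 and 933 under Runx1 KO. The labels overlapped, and the log2 change was -0.16 (SE 0.15, limma adjusted p 0.482). Without WT replicate 1, again the highest library, the change was -0.00052.

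Bcl2l2 (ENSMUSG00000089682; chromosome 14, 54883377 to 54888234, plus strand), the gene of BCL-W, was the single member with every Runx1 KO library above every WT library. It had 543, 544 and 516 normalised reads under WT and 648, 664 and 599 under Runx1 KO. The log2 change of 0.25 (SE 0.08) did not pass in limma, at an adjusted p of 0.0634. It passed when the libraries were scaled to equal totals (log2 change 0.33, limma adjusted p 0.0255), a scaling that shifts the median gene upward by 0.082.

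Bcl2a1b (ENSMUSG00000089929; chromosome 9, 89199209 to 89207827, plus strand) is one of 3 near-identical mouse copies of the A1 gene that are listed, beside Bcl2a1a and Bcl2a1d. The coding sequence of Bcl2a1b, 519 bases with the stop codon, is 97.9% identical to that of Bcl2a1a and 98.8% identical to that of Bcl2a1d in the GENCODE M21 transcripts, with 11 and 6 differing bases. The longest stretch with no difference is 217 bases in both pairs, so a read from within it matches more than 1 copy, and how the counting treated such reads is not given in the sources used here. Coding bases 1 to 60 hold 6 of the 12 positions at which the copies differ, shown in capitals.
Bcl2a1a: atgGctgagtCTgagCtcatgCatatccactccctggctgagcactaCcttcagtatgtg
Bcl2a1b: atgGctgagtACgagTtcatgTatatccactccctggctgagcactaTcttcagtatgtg
Bcl2a1d: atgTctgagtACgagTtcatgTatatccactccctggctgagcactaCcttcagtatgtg
Bcl2a1b had 10, 9 and 17 reads under WT and 4, 6 and 7 under Runx1 KO, all above the floor of 3 reads but too few for the filter. Every Runx1 KO library lay below every WT library, with a ratio of the means of 0.484, and this difference was not tested. Bcl2a1a had 73.2, 129 and 125 normalised reads under WT and 81.6, 47.6 and 60.7 under Runx1 KO (log2 change -0.77, SE 0.29, limma adjusted p 0.104), and without WT replicate 1 its change was -1.03 (limma adjusted p 0.0462). Bcl2a1d had 109, 174 and 175 under WT and 166, 74.3 and 77.6 under Runx1 KO (log2 change -0.59, SE 0.35, limma adjusted p 0.264), and without Runx1 KO replicate 1 its change was -0.96 (limma adjusted p 0.039). Summed to 1 row, a choice made after the data were seen, the copies had 192, 312 and 316 normalised reads under WT and 252, 128 and 145 under Runx1 KO, and the log2 change of -0.67 (SE 0.30) did not pass (limma adjusted p 0.156). Runx1 KO replicate 1 lay within the WT range in the sum, and the other Runx1 KO libraries lay below it.

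Transcript length differs between the genes, so their levels were compared as normalised reads per kilobase of exon. On this scale Mcl1 led in every library, with 72.4% to 81.7% of the pro-survival reads per kilobase under WT and 74.7% to 76.7% under Runx1 KO. Bcl2l1 followed among the single-copy genes, at 6.62% ± 0.47 and 7.69% ± 0.48 (SD, n = 3), then Bcl2 at 5.28% ± 0.82 and 4.56% ± 0.13, and Bcl2l2 at 3.16% ± 0.57 and 4.83% ± 0.37. The shares of Bcl2l1 and Bcl2l2 did not overlap between the labels and were higher under Runx1 KO, whereas those of Mcl1 and Bcl2 overlapped. The order of the less abundant genes depends on the length used: per kilobase of the longest coding sequence, Bcl2 made up 16.5% ± 2.4 and 14.0% ± 0.19, with no overlap between the labels, and lay above Bcl2l1, at 10.5% ± 0.60 and 12.01% ± 0.55, and above Bcl2l2, at 5.90% ± 1.1 and 8.87% ± 0.54 (SD, n = 3).

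**Figure D2:**
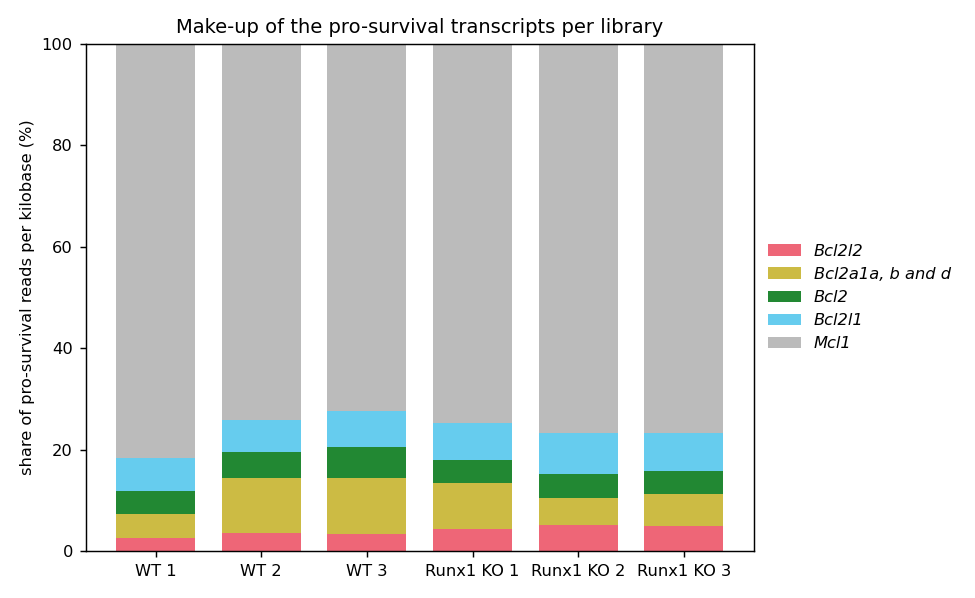
Share of each pro-survival gene (percent of the summed normalised reads per kilobase of exon, y axis) in each of the 6 libraries (x axis), with the 3 Bcl2a1 copies drawn together. Mcl1 fills 72.4% to 81.7% of every bar, and the Bcl2l2 segment is thicker in the 3 Runx1 KO bars (4.83% against 3.16% on average).

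A ratio of 2 genes within a library does not depend on the scaling of that library. The counts were not divided by length here, so the size of a ratio also reflects transcript length. Per kilobase of exon Bcl2 lay below Bcl2l1 in every library. Bcl2 was 2.16, 2.07 and 2.42 times Bcl2l11 in WT replicates 1 to 3 and 1.45, 1.44 and 1.30 times in Runx1 KO replicates 1 to 3. This ratio was lower in each Runx1 KO library than in each WT library. Bcl2l11 itself overlapped between the labels (log2 change 0.09), so the lower ratio mostly restates the fall of Bcl2. BIM, the product of Bcl2l11, is held by BCL2, but these RNA values do not measure that binding. Against Bcl2l1 the ratio was 1.59 ± 0.18 and 1.19 ± 0.04, and against Bcl2l2 3.46 ± 0.44 and 1.94 ± 0.11 (SD, n = 3), again with no overlap. Against Mcl1 it was 0.187 ± 0.040 and 0.161 ± 0.0036, and the labels overlapped. These ratios share the Bcl2 values and are given without a test.

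**Figure D3:**
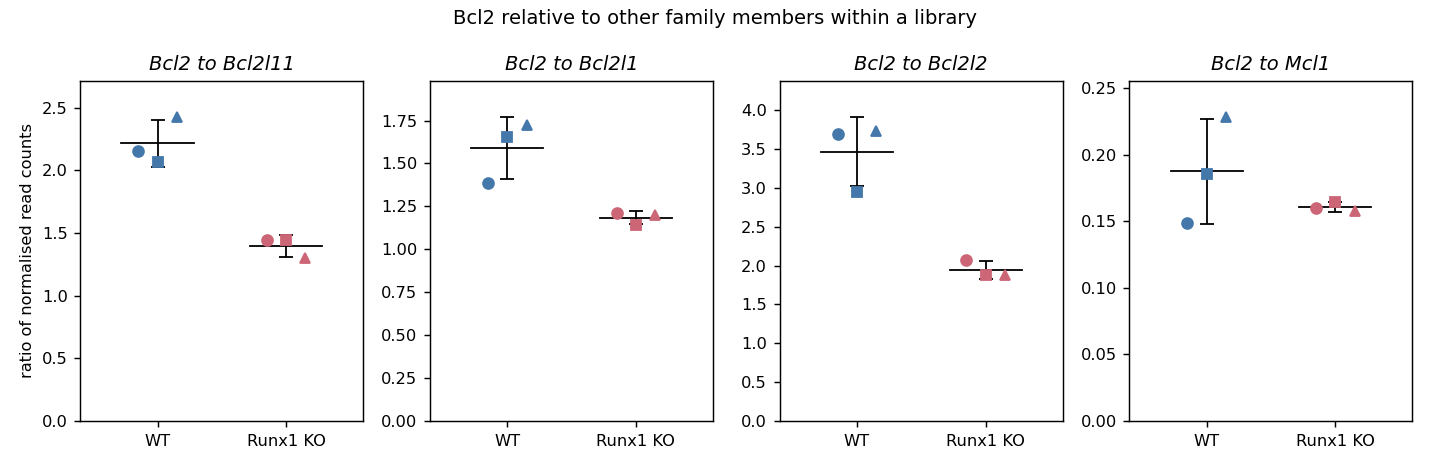
Ratio of normalised read counts of Bcl2 to 4 other members in each library (y axis, from 0), with the mean (line) and SD (bar) of the 3 libraries of each label. The ratios to Bcl2l11, Bcl2l1 and Bcl2l2 are lower in every Runx1 KO library, while the ratio to Mcl1 overlaps.

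Among the BH3-only members, 0 of 4 passed in limma. Bcl2l11 (ENSMUSG00000027381; chromosome 2, 128126038 to 128162547, plus strand) had 931, 777 and 796 normalised reads under WT and 926, 865 and 864 under Runx1 KO. These overlapped, and the log2 change was 0.09 (SE 0.09, limma adjusted p 0.512). Bid (ENSMUSG00000004446; chromosome 6, 120891930 to 120916853, minus strand), whose product is cut by caspase-8 and so links death receptors to the mitochondrion, had 3637, 3026 and 3002 under WT and 3345, 3047 and 2926 under Runx1 KO. It was the most abundant BH3-only member and its labels overlapped (log2 change -0.05, SE 0.09, limma adjusted p 0.734).

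Bad (ENSMUSG00000024959; chromosome 19, 6941861 to 6951899, plus strand), whose product is kept inactive by growth factor signalling through AKT and 14-3-3 proteins, had 733, 783 and 779 normalised reads under WT and 708, 667 and 625 under Runx1 KO. Every Runx1 KO library was below every WT library, but the log2 change of -0.20 (SE 0.08) did not pass (limma adjusted p 0.114). Bik (ENSMUSG00000016758; chromosome 15, 83526862 to 83544634, plus strand) was near the limit of detection, with 11, 12 and 8 reads under WT and 8, 6 and 13 under Runx1 KO. Its log2 change of -0.19 had an SE of 0.37, and at this depth a difference was not detectable.

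Bak1 (ENSMUSG00000057789; chromosome 17, 27019810 to 27029009, minus strand), the gene of the pore former BAK, had 3085, 3485 and 3123 normalised reads under WT and 2777, 2818 and 2575 under Runx1 KO. The labels did not overlap. The mean fell from 3231 ± 221 to 2723 ± 130 (SD, n = 3) (log2 change -0.25, SE 0.07, limma adjusted p 0.0475). The call was at the edge of the threshold: all 6 fits that left out a library lost it, with limma adjusted p values from 0.0582 to 0.154. It was also lost with TMM scaling (limma adjusted p 0.0594), with equal library totals (0.131) and without the filter (0.057).

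The gene whose values over the 6 libraries were most like those of Bcl2, among 11033 genes outside the lists with a mean of at least 100 normalised reads, was Crybg3, with a root-mean-square difference of 0.043 between centred log2 values. Cklf (0.055) and Inpp5f (0.058) came next. All 3 were lower under the label Runx1 KO, by -0.64, -0.62 and -0.50 on the log2 scale. The likeness was measured over both labels, so this shared direction follows from how the genes were picked.

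The rest of the family was read from a list of 15 other genes, of which Bcl2l10 and Hrk had no value in these files and Bcl2l15, with 1 to 10 reads a library, did not pass the filter. Of the 12 tested, 4 passed, 2 lower and 2 higher, against 21.9% of all tested genes. Their median log2 change was -0.16. Bmf (ENSMUSG00000040093; chromosome 2, 118528757 to 118549687, minus strand), a BH3-only gene, had 1173, 344 and 563 normalised reads under WT and 293, 159 and 135 under Runx1 KO. It fell from 693 ± 429.7 to 196 ± 85.1 (SD, n = 3). On the log2 scale this was -1.72 (SE 0.47; limma adjusted p 0.0407), beyond any of the 9 tested members, of which Bcl2 changed most. Without WT replicate 1, the highest library, the change was -1.25, smaller than that of Bok in the same fit (-1.46), and the call was lost (limma adjusted p 0.0687). It was also lost without WT replicate 3 (0.0859), Runx1 KO replicate 2 (0.128) or Runx1 KO replicate 3 (0.126). Bmf and the B-lymphoid marker sum stood in the same order in the 3 WT libraries and both were highest in replicate 1 of each label. In Runx1 KO replicates 2 and 3 their order differed, with Bmf at 159 and 135 and the marker sum at 1264 and 1299. The monocyte and macrophage sum stood in the same order as Bmf within each label (117701, 90300 and 98237 under WT, 100639, 71974 and 67718 under Runx1 KO). The part of lymphoid or other cells in the Bmf result was not tested.

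**Figure D4:**
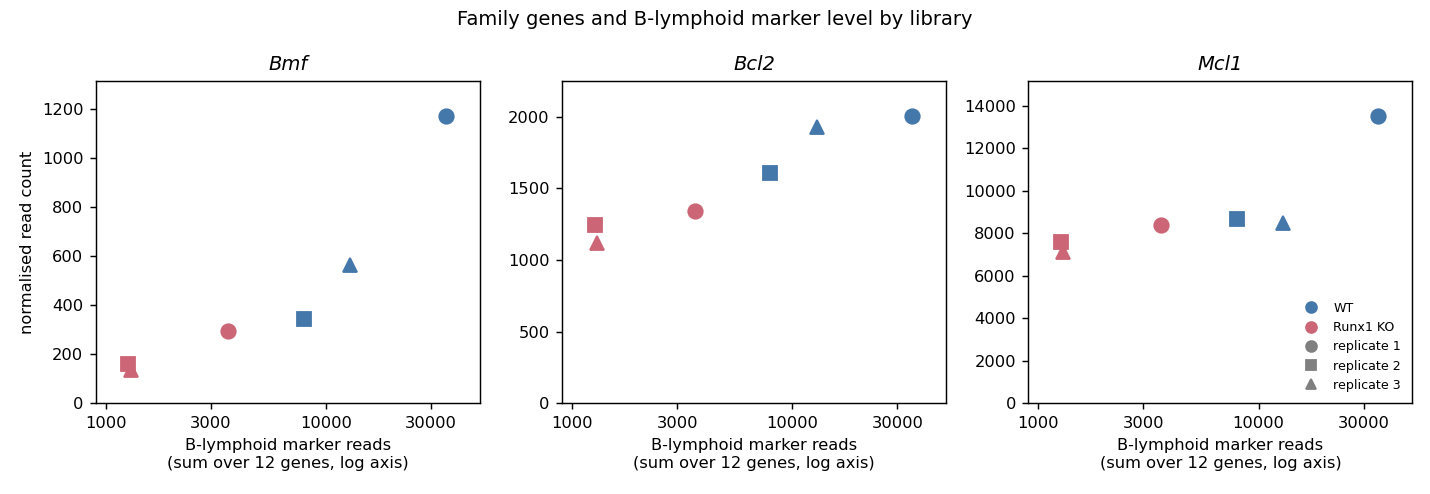
Normalised read count of Bmf, Bcl2 and Mcl1 (y axes, from 0) against the summed normalised reads of 12 B-lymphoid marker genes (x axis, log scale) in each library; colour gives the label and shape the replicate number. WT replicate 1 has the highest marker sum, 35032, and the highest value of all 3 genes, with Bmf at 1173 and Mcl1 at 13531.

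Bok (ENSMUSG00000026278; chromosome 1, 93685660 to 93695764, plus strand), a relative of BAX and BAK, was scarce, with 26, 18 and 34 reads under WT and 11, 8 and 6 under Runx1 KO. It fell by 1.49 on the log2 scale (SE 0.35, limma adjusted p 0.0248), and the call was lost without WT replicate 1 (0.0654), WT replicate 3 (0.0773), Runx1 KO replicate 2 (0.0863) or Runx1 KO replicate 3 (0.081). The 2 genes that rose are distant relatives: Bcl2l12 by 0.41 (SE 0.11, limma adjusted p 0.0365) and Bcl2l14 by 0.71 (SE 0.18, limma adjusted p 0.0329). Bcl2l12 had 268, 244 and 291 normalised reads under WT and 349, 376 and 342 under Runx1 KO, and Bcl2l14 had 62.3, 57.5 and 48.9 and 104, 82.3 and 92.5. Left-out libraries moved these calls too: Bcl2l12 kept its call only without WT replicate 3 (limma adjusted p 0.0461; up to 0.141 otherwise) and Bcl2l14 only without WT replicate 1 (0.049; up to 0.0992 otherwise).

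Other genes of the family were named after their values were seen, for their role. Bax, the partner of Bak1 in pore formation, had 684, 810.3 and 812 normalised reads under WT and 723, 692 and 731 under Runx1 KO, a log2 change of -0.10 (SE 0.09, limma adjusted p 0.463). In normalised reads not divided by length, Bak1 exceeded Bax in every library, by ratios of 4.51, 4.30 and 3.84 under WT and 3.84, 4.07 and 3.52 under Runx1 KO. Per kilobase of exon Bak1 held 72.8% ± 1.7 and 71.1% ± 1.5 of the reads of the pore-forming genes (SD, n = 3). Bbc3, the gene of the p53 target PUMA, overlapped fully, at 246, 159 and 198 against 245, 164 and 184 (log2 change -0.03, SE 0.21). Pmaip1, the gene of NOXA, which binds MCL1, had 801, 707 and 964 under WT and 869, 328 and 331 under Runx1 KO. Runx1 KO replicate 1 lay within the WT range and the other Runx1 KO libraries lay well below it, so the log2 change of -0.84 had an SE of 0.37 and did not pass (limma adjusted p 0.143). Without Runx1 KO replicate 1 its change was -1.31 (limma adjusted p 0.0031).

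**Figure D5:**
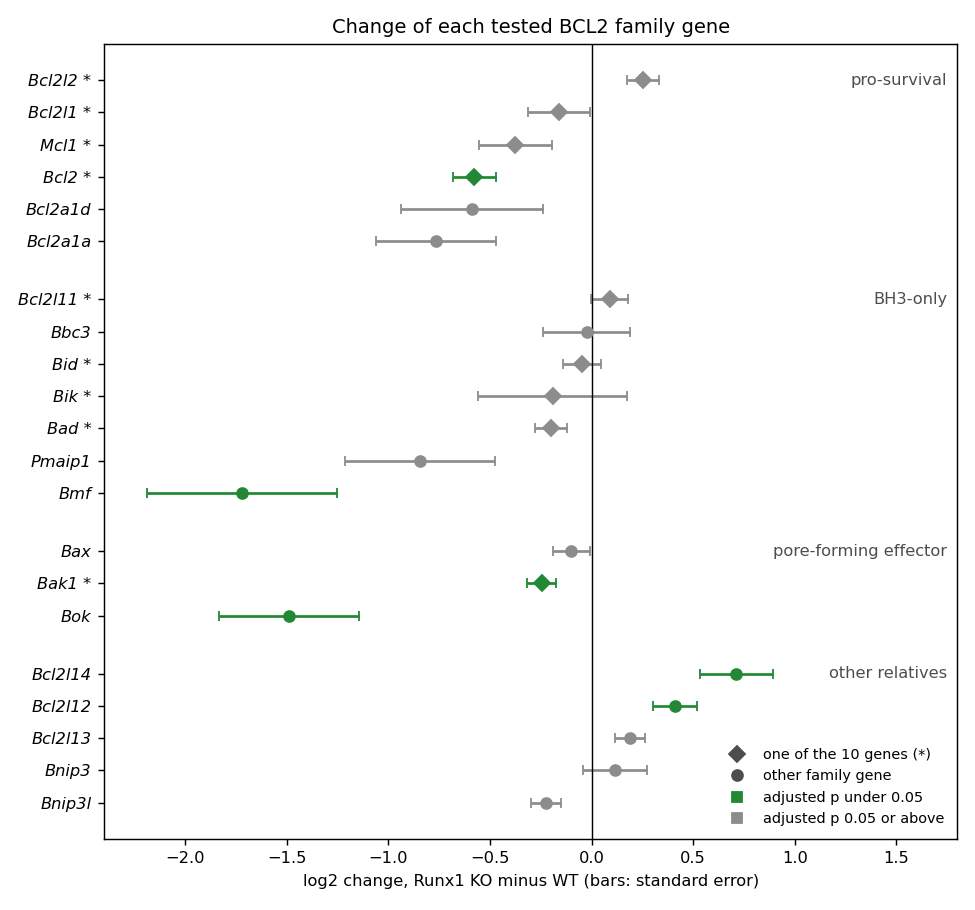
Log2 change, label Runx1 KO minus label WT (x axis; bars are the standard error), of every tested BCL2 family gene, grouped by role; diamonds are the 10 genes described first and green marks a limma adjusted p under 0.05. Bcl2 and Bak1 are the called diamonds, at -0.58 and -0.25, and Bmf lies farthest from 0, at -1.72.

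Downstream of the family, 2 of 20 genes of the caspase and apoptosome list passed, 1 in each direction, against 21.9% of all tested genes. Cycs, the gene of cytochrome c, which is also an electron carrier of respiration, fell from 2360.3 ± 167 to 1718 ± 28.4 normalised reads (SD, n = 3; log2 change -0.46, SE 0.07, limma adjusted p 0.00583). The median change of this list was 0.028. Of 16 caspase inhibitors and death receptor genes 3 passed, beside the same 21.9% over all tested genes. Birc5, the gene of survivin, which also serves in cell division, fell by 0.47 (SE 0.06, limma adjusted p 0.00407), and Tnfrsf1b, a TNF receptor, by 0.34 (SE 0.09, limma adjusted p 0.0363), while Tnfrsf10b, the mouse TRAIL receptor, rose by 0.64 (SE 0.18, limma adjusted p 0.0416). With a library left out, Tnfrsf1b stayed past the threshold only without WT replicate 2 or Runx1 KO replicate 1, the other fits giving limma adjusted p values from 0.0651 to 0.121. Tnfrsf10b did so only without WT replicate 2 (0.0469), the rest reaching 0.104. With equal library totals Tnfrsf1b was lost as well (0.103). The median of this list was 0.0049.

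Known regulators of the members were read from a list of 30 genes, of which Trp73 had no value in these files. Of the 29 tested, 9 passed, 4 higher and 5 lower, against 21.9% of all tested genes. Their median log2 change was 0.084. Kit rose by 0.60 (SE 0.07, limma adjusted p 0.00346). Foxo3, a transcription factor that drives Bcl2l11 when growth factor signalling is low, had 3410.1, 2910.1 and 3005 normalised reads under WT and 4542, 4522 and 4540.0 under Runx1 KO, a log2 change of 0.55 (SE 0.07, limma adjusted p 0.00379). Stat5a and Stat5b, which carry cytokine signals to Bcl2l1 and Mcl1, rose by 0.40 (SE 0.07, limma adjusted p 0.00929) and 0.43 (SE 0.06, limma adjusted p 0.00583). The target genes named with these factors, Bcl2l11, Bcl2l1 and Mcl1, did not pass, and a link between the factors and these genes was not tested.

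Il7r, the gene of the interleukin-7 receptor, whose signal maintains Bcl2 in lymphoid cells, had 704, 189.7 and 407 normalised reads under WT and 178, 59.5 and 56.7 under Runx1 KO, a log2 change of -2.15 (SE 0.58, limma adjusted p 0.0399). Rel, an NF-kB subunit, which drives the A1 genes and Bcl2l1 in lymphocytes, had 2663, 1480.3 and 2106 under WT and 1293, 1032 and 902 under Runx1 KO, a log2 change of -0.93 (SE 0.22, limma adjusted p 0.0277). Both were highest in WT replicate 1. So were the B-lymphoid, neutrophil granule, mast cell and basophil, and monocyte and macrophage marker sums. Il7r and Rel each kept the call only when WT replicate 2 or Runx1 KO replicate 1 was removed. Otherwise the limma adjusted p rose to between 0.0919 and 0.131 for Il7r and between 0.0546 and 0.0934 for Rel. Atf4, a stress response factor, fell by 0.42 (SE 0.06, limma adjusted p 0.00665), and Ywhaz, one of the 14-3-3 genes, whose proteins hold phosphorylated BAD, by 0.37 (SE 0.07, limma adjusted p 0.0102). The fifth gene of the list that was lower, named after its values were seen, was Akt1, the kinase that phosphorylates BAD (log2 change -0.26, SE 0.05, limma adjusted p 0.0147). Its call was lost without Runx1 KO replicate 2 (0.0624) or replicate 3 (0.0646), and with equal library totals (0.0517).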

How the data were processed

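RNA was sequenced in 6 libraries, 3 per label. The submitters' processing notes name HISAT2, HTSeq 0.9.1, mm10 and GRCm38. The deposited values are a signal per gene, worked out from the values to be read counts divided by a size factor: in each file the smallest positive value divides 100% of them into whole numbers, within 0.001, and that step was taken as 1 read. The normalization, annotation and strand setting are not given in the sources used here. No listed gene had fewer than 10 reads in all. Symbols came from a table of Ensembl identifiers, which named 20077 of the 20097 genes, and positions and lengths from GENCODE M21 (GRCm38).

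Genes passing filterByExpr of edgeR 4.0.16 (minimum count 10, minimum total 15) on the deposited values entered limma 3.58.1 (mean trend, two-sided, group the only term) in R 4.3.3; 15410 were tested. The pseudocount of 1 understates changes of weakly expressed genes. The pipeline was tested on simulated data. An exact permutation test of a gene cannot go below p = 0.1 with 3 libraries against 3, and none is given. Count-based tests were planned as alternatives and were not run, since the values are not counts and the step of 4 libraries lies too near 1 for the reads to be accepted as recovered. Alternatives were other scalings, filters and pseudocounts, the replicate number as a block and leaving out each library. Floors in reads cover counting error only.

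The members, gene lists and tests were chosen with earlier results of these data known. Genes were named by a rule: all 10 members, other family genes that passed, up to 4 rises and 4 falls of each pathway list, the leading 2 genes of each marker list, and the 3 genes most like the called member with the lowest p. The result of 1 gene that the rule names is not reported here.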

Additional observations from a re-analysis of the deposited data

How the results depend on the processing

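With no library removed, 62 alternative values of single members were computed, and 56 did not change side or sign. Equal library totals, which shift the median gene upward by 0.082, gave Bcl2l2 a log2 change of 0.33 that passed, Bak1 one of -0.16 that did not, and turned Bid from -0.05 to 0.033 and Bbc3 from -0.03 to 0.057, neither past the threshold; Bak1 also lost its call with TMM (-0.23) and without a filter (-0.25). The members called were then 1 with TMM and 1 without a filter in place of 2, and with equal totals 1 was higher and 1 lower. Equal totals also gave 4 caspase and apoptosome genes (3 higher), and 3 higher and 1 lower caspase inhibitor or death receptor genes. A filter at a mean of at least 1 CPM left 1 lower gene of the other family list.

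The replicate numbers of the titles were used as a block, although same-numbered libraries did not deviate together in every pair: the correlations of their deviations were 0.29, 0.13 and -0.010, and WT replicate 2 correlated better with Runx1 KO replicate 3 (0.23). With the block 3843 genes passed against 3370, 3 members among them: Mcl1 gained a call at a log2 change of -0.38 (limma adjusted p 0.0491). In the block fit 1 other family gene was higher, Bcl2l12 having a limma adjusted p of 0.0623, and 0 caspase inhibitor or death receptor genes were higher, Tnfrsf10b having one of 0.0716.

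Leaving out a library gave from 1367 called genes (without Runx1 KO replicate 2) to 3597 (without Runx1 KO replicate 1), and of the 10 members always 1, with 0 higher and 1 lower, which was Bcl2 at -0.67 to -0.51. Bak1 ran from -0.28 to -0.19, Mcl1 from -0.49 to -0.16, Bcl2l1 from -0.29 to -0.00052, Bcl2l2 from 0.22 to 0.30, Bcl2l11 from 0.039 to 0.17, Bad from -0.24 to -0.15, Bid from -0.10 to 0.041 and Bik from -0.45 to 0.047; the signs of Bid and Bik turned without WT replicate 1 and without Runx1 KO replicate 2. Bbc3 turned to 0.13, 0.10 and 0.015 without WT replicate 1, Runx1 KO replicate 2 and Runx1 KO replicate 3. Other family calls ran from 0 to 4 (0 to 1 higher, 0 to 4 lower), caspase and apoptosome calls from 1 to 2 (0 to 1 higher, 1 lower), inhibitor and death receptor calls from 1 to 3 (0 to 1 higher, 1 to 2 lower) and regulators from 6 to 13 (4 to 7 higher, 2 to 6 lower). For none of these shifts was the cause tested. The planned edgeR quasi-likelihood and DESeq2 tests on recovered reads were not run. Bik, Bcl2a1b and Bok rest on few reads, which limits their precision.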
